A study of Mus musculus with 20 samples.

Results

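Tumours of mice given an antibody against PD-1 were compared with tumours of mice that were not given it, over 2 drug backgrounds, in bulk RNA sequencing of 20 tumours of B16F10, a pigmented mouse melanoma line. The 10 tumours with anti-PD-1 are 5 from mice given the combination of propafenone and anti-PD-1 and 5 from mice given anti-PD-1 alone. The 10 tumours without it are 5 from mice given propafenone and 5 from mice given control IgG. These are all 20 tumours of the series, and each enters the comparison once, with propafenone as an additive term. All mice were wild-type, immunocompetent C57BL/6 animals, treated by injection into the peritoneum once tumours were near 100 mm3 in volume, and tumours were taken on day 16. Age and sex of the mice are not given in the sources used here, nor is it stated that each tumour came from its own mouse. B16F10 is a single line. The labels give melanoma cells as the cell type and tumour as the source, and the libraries hold host cell RNA as well: the macrophage markers Adgre1, Csf1r and Cd68 and the fibroblast markers Col1a1 and Pdgfra were above 0 in all 20. Where nothing says that samples came from separate animals, p-values measure only the spread between these libraries.

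PD-1, encoded by Pdcd1, is an inhibitory receptor on activated T cells. Its ligand PD-L1, encoded by Cd274, is made by tumour and myeloid cells, and antibodies against the receptor or the ligand release T cells from that inhibition. B16F10 is known as a line with little T cell infiltration and a weak response to anti-PD-1 alone. Propafenone is a heart drug given against arrhythmia, a blocker of sodium channels. Ferroptosis, which the title of the series names, is the death of cells whose membrane lipids are peroxidised with the help of iron.

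With anti-PD-1, genes of fibroblasts, macrophages and skeletal muscle rose and genes of glycolysis and hypoxia and some of red blood cells fell, while no gene of the T cell, cytotoxic or interferon lists passed the test. Of 15875 genes tested, 1286 (8.10%) passed an adjusted p of 0.05 by edgeR's quasi-likelihood test with Benjamini-Hochberg adjustment. Of these, 616 genes (3.88%) rose and 670 (4.22%) fell. These 2 shares are the ones to set beside the counts of every gene list below. At an unadjusted p under 0.05 there were 4020 genes, against 794 that chance alone would give. The genes that rose were mostly of low abundance and moved far, with a median mean level of 3.22 CPM (counts per 1000000, with TMM scaling between libraries) and a median log2 change of 0.97. The genes that fell were abundant and moved little, with a median level of 56 CPM and a median log2 change of -0.30. At least 1.5-fold changes were held by 455 genes that rose and 109 that fell, and at least 2-fold changes by 292 and 32. The median log2 change over all tested genes was -0.0052. The balance between directions depended on the scaling: 770 genes rose and 441 fell when libraries were scaled by their totals, and 925 rose and 388 fell on the log2(TPM + 1) scale with limma.

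**Figure D1:**
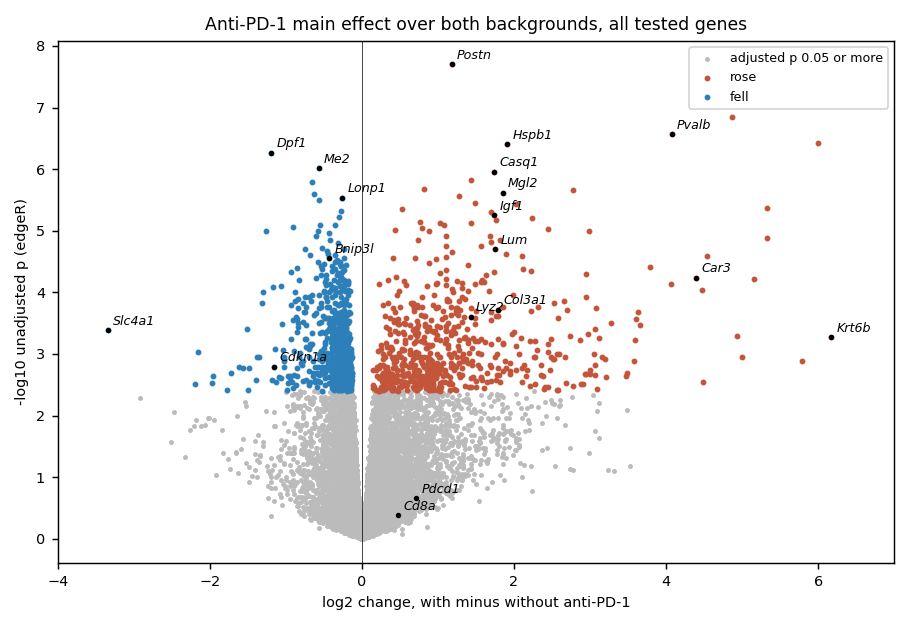
Each point is 1 of 15875 tested genes, with the log2 change (with minus without anti-PD-1, x axis) against -log10 of the unadjusted p (y axis). Coloured points are the 616 genes that rose and the 670 that fell at an adjusted p under 0.05 by edgeR's quasi-likelihood test, black points are labelled genes, and the genes that rose reach farther from 0 than those that fell.

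All 1286 genes kept their direction in each of 20 fits that left out 1 library. Their choice by a small p over the same libraries largely fixes that. Of the 1286, 453 (261 that rose, 192 that fell) passed in all 20. The count of genes itself moved between 497, without propafenone tumour 3, and 2067, without anti-PD-1 tumour 3. In 19 genes (0.120% of those tested) the 10 tumours with anti-PD-1 did not overlap the 10 without. Higher with anti-PD-1 were Ankrd33b, Arl4c, Ephx2, Il1rl1, Khdc4, Ngfr, Postn, Sh3bgr, Synpo2, Tek and Thbd. Lower were Dpf1, Dpp3, Lonp1, Mrpl10, Nsf, Tarsl2, Tbl2 and Tnfaip8l1.

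Library totals ran from 56 to 64.5 M counts (M, 1e6). Melanoma identity was present in every library, with Tyr, Dct, Pmel, Mlana and Mitf above 0 in all 20. A pair of tumours with anti-PD-1 stood apart from the rest of their side. The second anti-PD-1 tumour and the third combination tumour had skeletal muscle scores (mean centred log2 CPM over the muscle list) of -3.435 and -0.753, while the other 8 tumours with anti-PD-1 lay between 1.355 and 2.948 and the 10 without between -3.791 and 0.405. Red blood cell RNA stood apart too: Hbb-bs exceeded 1000 CPM in 1 tumour with anti-PD-1, the second anti-PD-1 tumour, and in 4 tumours without, the IgG and propafenone tumours numbered 4 and 5. Without the second anti-PD-1 tumour 1336 genes passed (8.32% of 16064 tested), and without the third combination tumour 837.

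The smallest p belonged to Postn, which encodes periostin, a matrix protein secreted by activated fibroblasts, on chromosome 3 (54361109 to 54391037, GRCm38). Its lowest, median and highest values were 27.5, 41.4 and 60.2 CPM with anti-PD-1, and 11.6, 19.2 and 24.9 CPM without. Every tumour with anti-PD-1 was above every tumour without, including the pair low in muscle RNA, at 27.5 and 60.2 CPM. The means were 42.8 ± 10.9 CPM with anti-PD-1 and 18.6 ± 4.34 CPM without (SD, n = 10 each), a log2 change of 1.18 ± 0.136 (SE; adjusted p = 0.00032, edgeR's quasi-likelihood test with Benjamini-Hochberg adjustment).

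Genes of fibroblasts, the cells that lay down tumour matrix, were higher. A change in the number of cells of a type and a change in RNA per cell cannot be told apart in whole tumours. That holds here and for every cell type that follows. Of 24 fibroblast genes tested, 21 were higher and 14 rose, against 3.88% of all genes, and none fell. The median log2 change of the list was 0.77, against -0.0052 over all genes. Without the second anti-PD-1 tumour 11 genes of the list rose, and likewise without the third combination tumour; over all 20 fits that left out 1 library the count ran from 7, without propafenone tumour 3, to 17, without IgG tumour 5. Lum, a collagen-binding proteoglycan, ran from 2.6 through a median of 3.52 to 10.1 CPM with anti-PD-1, and from 0.461 through 1.16 to 3.04 CPM without. Its ranges overlapped at their edges, and the log2 change was 1.75 ± 0.322 (SE; adjusted p = 0.0057, edgeR). Col3a1, the chain of type III collagen, ran from 96.1 through 203 to 560 CPM with anti-PD-1, and from 21.4 through 58.5 to 177 CPM without. The highest Col3a1 values were those of tumours with anti-PD-1, the third combination tumour among them, and the log2 change was 1.79 ± 0.383 (SE; adjusted p = 0.012, edgeR). Fap, a protease of the surface of activated fibroblasts, averaged 1.26 ± 0.292 CPM with anti-PD-1 and 0.583 ± 0.174 CPM without (SD, n = 10 each; adjusted p = 0.0044, edgeR).

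The matrix lists hold some genes that are also on the fibroblast list. Of 19 collagen chains tested 7 rose, with Col5a2, a chain of the fibril-nucleating type V collagen, at 28.8 ± 11.1 CPM with anti-PD-1 and 14.9 ± 3.87 CPM without (SD, n = 10 each). Of 8 small leucine-rich proteoglycans tested 7 rose. Without the second anti-PD-1 tumour 4 collagen chains and 4 of these proteoglycans rose. Over the 20 fits that left out 1 library the collagen count ran from 3, without IgG tumour 3 or propafenone tumour 3, to 12, without IgG tumour 4 or 5, and that of the proteoglycans from 3, without propafenone tumour 3, to 7. Among these Aspn, an inhibitor of TGF-beta, ran from 4.86 through 6.46 to 7.61 CPM with anti-PD-1 and from 1.43 through 3.53 to 5.41 CPM without. The 2 ranges shared only a narrow band. Its log2 change was 0.88 ± 0.154 (SE; adjusted p = 0.004, edgeR), and Aspn overlaps Cenpp on the opposite strand. Of 16 matrix proteases and inhibitors tested 8 rose, and 4 to 8 passed when 1 library was left out. Mmp9, a gelatinase, averaged 2.72 ± 2.52 CPM with anti-PD-1 and 0.689 ± 0.374 CPM without (SD, n = 10 each), and the abundant inhibitor Timp2 had 200 ± 14.7 and 161 ± 28.2 CPM in the same order. Of the ligands, receptors and binders of TGF-beta, 15 were tested: Ltbp4, a latent TGF-beta binding protein of elastic fibres, rose by 0.81 ± 0.126 (log2, SE), and its relative Ltbp1 fell, with a log2 change of -0.74 ± 0.189 (SE). Ltbp4 had 7.64 to 13.6 CPM (median 9.94) with anti-PD-1 and 3.93 to 7.92 CPM (median 5.93) without. No TGF-beta ligand or receptor on the list passed. Insulin-like growth factor genes were 9, of which 3 rose: Igf1 itself, at 2.81 ± 1.02 CPM with anti-PD-1 and 0.802 ± 0.517 CPM without (SD, n = 10 each), and its binding proteins Igfbp5 and Igfbp6. Selenop, the selenium carrier that several tissues secrete, was also among the genes with the smallest p, at 117 ± 13.1 CPM with anti-PD-1 and 81.1 ± 13.7 CPM without (SD, n = 10 each), and overlaps Ccdc152 on the opposite strand.

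Macrophage genes were also higher. All 24 macrophage and monocyte genes tested were higher, 12 rose and none fell, with a median log2 change of 1.10. Lyz2, the lysozyme of myeloid cells, ran from 36 through 62.1 to 167 CPM with anti-PD-1, and from 8.6 through 27.9 to 57.5 CPM without. Mrc1, the mannose receptor CD206, ran from 8.26 through 17 to 29.3 CPM with anti-PD-1, and from 2.38 through 7.31 to 13.2 CPM without. Both pairs of ranges overlapped in part, and the log2 changes were 1.43 ± 0.316 for Lyz2 (SE; adjusted p = 0.014, edgeR) and 1.24 ± 0.277 for Mrc1 (SE; adjusted p = 0.013, edgeR). Without the second anti-PD-1 tumour 11 of the 24 rose, and without the third combination tumour 6. Over the 20 fits that left out 1 library the count ran from 5, without propafenone tumour 3, to 20, without IgG tumour 4. The general markers Adgre1 (F4/80) and Csf1r (the CSF-1 receptor) rose by 1.55 and 1.32 on the log2 scale.

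Of 13 genes of alternatively activated macrophages tested, 5 rose (Mrc1, Mgl2, Folr2, Stab1 and Cbr2). Mgl2, the lectin CD301b, had 0.463 to 4.54 CPM (median 1.59) with anti-PD-1 and 0.232 to 1 CPM (median 0.489) without, with an adjusted p of 0.0028 by edgeR. Of 12 genes of pro-inflammatory macrophages, 11 were higher and 1 passed, Ptgs2, the inducible prostaglandin synthase. Ptgs2 passed in 9 of the 20 fits that left out 1 library, and without the second anti-PD-1 tumour, its highest at 7.34 CPM, no gene of that list passed. The 2 lists were not tested against each other. Of 13 dendritic cell genes and 10 MHC class II genes none passed. The smallest p of each list was that of Naaa, with a log2 change of 0.37 (adjusted p = 0.094, edgeR), and of Ctss, cathepsin S, with 1.04 (adjusted p = 0.1, edgeR). When 1 library was left out, 0 to 2 dendritic cell genes and 0 to 1 MHC class II genes passed.

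Secreted signals and effectors of myeloid cells followed. Of 13 CC chemokines tested, all were higher and 5 rose. Ccl9 averaged 14.6 ± 6.86 CPM with anti-PD-1 and 6.38 ± 3.28 CPM without (SD, n = 10 each), and the monocyte attractant Ccl7 averaged 5.67 ± 2.74 and 2.31 ± 1.44 CPM in the same order. Of 10 CXC chemokines 3 rose, Cxcl5, Cxcl14 and Cxcl16, while Cxcl9, the interferon-gamma-induced attractant of T cells, had 22.8 ± 15.2 CPM with anti-PD-1 and 18 ± 13.9 CPM without (SD, n = 10 each; adjusted p = 0.76, edgeR). Of 17 complement genes 8 rose. Leaving out 1 library gave 2 to 7 CC chemokines and 5 to 12 complement genes, both highest without IgG tumour 4. The complement genes include the central component C3 (log2 change 1.58), properdin Cfp (1.12) and the anaphylatoxin receptors C5ar1 (1.23) and C3ar1 (1.34). Mast cell genes passed the filter on low counts in 7 of 12 cases, and 3 of them rose (the proteases Cpa3, Mcpt4 and Tpsb2), each below 1 CPM on average on both sides. Mcpt4 was at 0 in the second anti-PD-1 tumour and in the second IgG tumour. From 2 to 4 mast cell genes passed when 1 library was left out. With the muscle score or the red blood cell score as a covariate 0 passed. Of 12 neutrophil genes 5 passed the filter and Mmp9 alone rose.

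**Figure D2:**
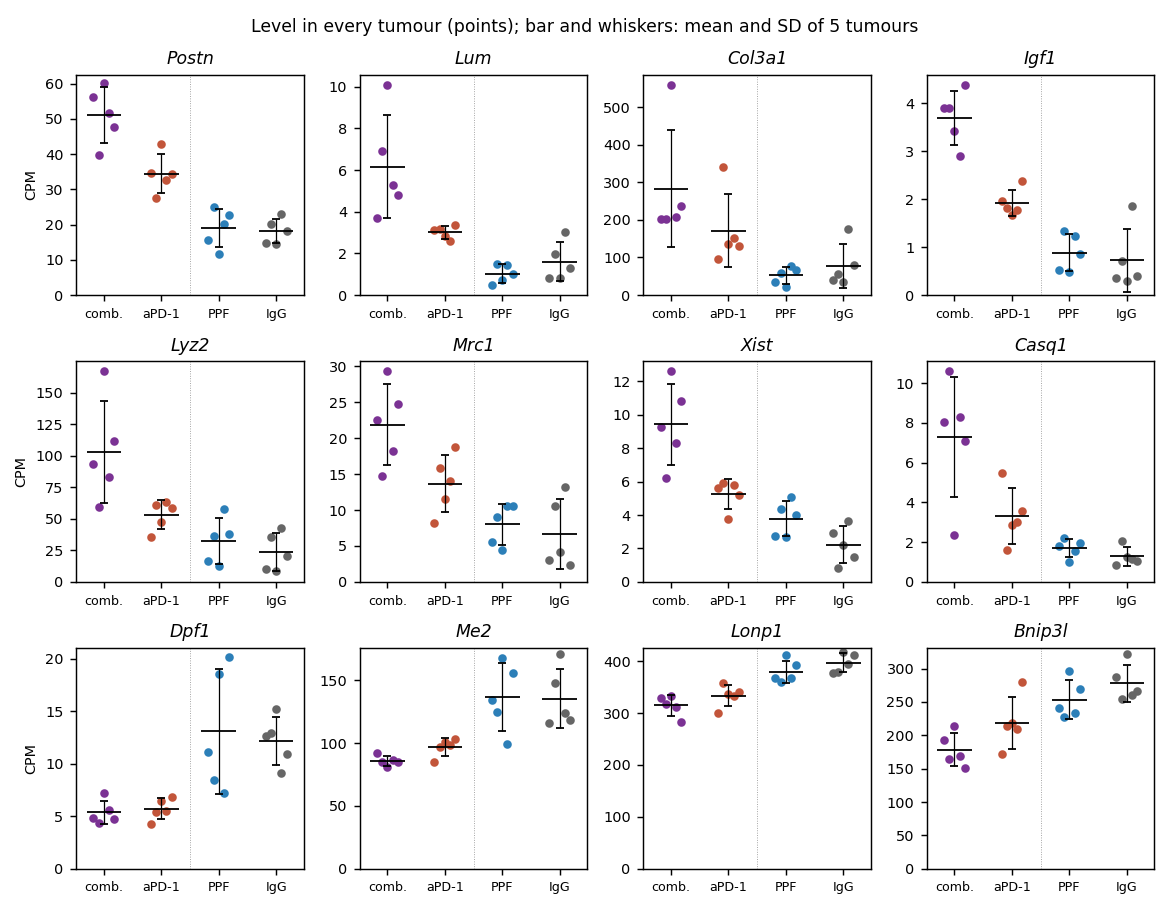
CPM of single genes (y axes, linear from 0), 1 point per tumour with bars for the mean and whiskers for the SD of each group, with the combination (comb.) and anti-PD-1 (aPD-1) groups left of propafenone (PPF) and IgG, 5 tumours each. Postn lies at 27.5 to 60.2 CPM in tumours with anti-PD-1 and at 11.6 to 24.9 CPM in those without, and Dpf1 lies in the opposite order.

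Endothelial genes were mostly higher. Of 21 tested 18 were higher and 4 rose, Pecam1, Cdh5, Tek and Nos3, against 3.88% of all genes. The count was 11 without propafenone tumour 4 and 2 without any of 8 other libraries. Tek, the receptor of angiopoietins, ran from 1.08 through 1.86 to 2.71 CPM with anti-PD-1, and from 0.114 through 0.676 to 1.07 CPM without. The 10 tumours of each side did not overlap, and the log2 change was 1.60 ± 0.325 (SE; adjusted p = 0.0084, edgeR). Pecam1 (CD31) averaged 43.5 ± 4.24 CPM with anti-PD-1 and 29.9 ± 8.52 CPM without (SD, n = 10 each). Of 13 pericyte and smooth muscle genes 5 were higher and 1 rose, Des, which skeletal muscle also makes.

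Skeletal muscle genes had the largest median change of any list whose members passed the test. Of 22 listed 21 were tested, all were higher and 18 rose, with a median log2 change of 2.87. The count ran from 10, without propafenone tumour 3, to 19 when 1 library was left out. Their summed level ran from 23.1 through 369 to 730 CPM with anti-PD-1, and from 17.5 through 37.8 to 129 CPM without. Parvalbumin, Pvalb, a calcium buffer of fast fibres, ran from 0 through 2.88 to 9.75 CPM with anti-PD-1, and from 0.0654 through 0.175 to 0.441 CPM without. The value of 0 is that of the second anti-PD-1 tumour, the lowest of its side, and the log2 change was 4.07 ± 0.546 (SE; adjusted p = 0.0012, edgeR). Casq1, calsequestrin of the sarcoplasmic reticulum, had 5.29 ± 3.05 CPM with anti-PD-1 and 1.49 ± 0.484 CPM without (SD, n = 10 each). Among the fast myosins Myh4 averaged 24.8 CPM with anti-PD-1 and 1.65 CPM without, and Myh1 39.9 and 4.37 CPM in the same order; these paralogs are near-identical in part, so reads may be shared between them. Defining muscle markers at 0 were Tnnt3 in the second anti-PD-1 tumour and, among tumours without anti-PD-1, Myh4 and Tnnt3 in IgG tumours 3 and 5. Ldb3, a protein of the Z-disc, rose by 2.77 on the log2 scale. Other genes with a role in muscle among those with the smallest p were Flnc (filamin C) and Synpo2, at 16 ± 8.63 and 3.93 ± 1.69 CPM with anti-PD-1, and 3.86 ± 1.95 and 1.37 ± 0.356 CPM without (SD, n = 10 each).

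Genes of other tissues around a tumour were uneven between libraries. Of 16 keratinocyte genes 3 rose, Krt6a, Krt17 and Trp63, against 3.88% of all genes. From 0 to 5 of them passed when 1 library was left out. Krt6b, Krt6a and Krt16, the stress keratins of skin, had the largest fold changes among genes that rose and averaged at least 1 CPM, together with Car3, a carbonic anhydrase of muscle and fat. Krt6b ran from 0 through 0.679 to 17.2 CPM with anti-PD-1, and from 0 through 0 to 0.403 CPM without, so the difference rests on a few libraries, and Krt6a and Krt6b are near-identical paralogs. Car3 averaged 17.2 ± 12.1 CPM with anti-PD-1 and 0.85 ± 0.981 CPM without (SD, n = 10 each). Of 13 adipocyte genes 4 rose (Plin4, Lpl, Car3 and Cfd), and 1 to 6 passed when 1 library was left out. With the muscle score as a covariate 0 of them passed, and the median log2 change went from 1.03 to -0.099. The defining marker Adipoq was at 0 in anti-PD-1 tumour 2 and combination tumour 3 and, without anti-PD-1, in IgG tumour 3.

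The muscle score was higher in most tumours with anti-PD-1, and 3 genes of other host cells, chosen after their values were seen, are given for the 2 tumours where it was low. In the second anti-PD-1 tumour and the third combination tumour Col3a1 stood at 341 and 560 CPM, against 21.4 to 177 CPM in the 10 tumours without anti-PD-1. Lyz2 stood at 61.1 and 167 CPM, against 8.6 to 57.5 CPM. Mrc1 stood at 15.8 and 29.3 CPM, against 2.38 to 13.2 CPM. The score of the whole macrophage and monocyte list did not set the second anti-PD-1 tumour apart in this way. It was 0.251 there, below IgG tumours 2 (0.262) and 4 (0.293) and propafenone tumour 4 (0.378). In the third combination tumour that score was 1.386. Other host lists differed between these 2 tumours: the second anti-PD-1 tumour had the lowest score of all 20 for T cells (-1.54), cytotoxic genes (-1.734), mast cells (-1.464), dendritic cells (-1.113), B cells (-1.28) and adipocytes (-1.746), while the third combination tumour had 0.623, 1.117, 1.309, 1.195, 1.151 and -1.229 for those lists. With the muscle score as a covariate 838 genes passed (5.28%), of which 367 were among the 1286. In that fit 18 fibroblast genes passed, 4 macrophage genes, 1 gene of glycolysis and hypoxia, and 5 muscle genes. The median log2 changes of those lists were 0.98, 0.72, -0.15 and 0.089 in that order. The muscle score is made from the muscle list itself, which largely fixes what that list shows in this fit. Most tumours with anti-PD-1 also had a muscle score above all 10 tumours without it. The score thus takes up part of the difference between the sides. In every result with this covariate, a lost call cannot be assigned to muscle RNA rather than to that shared part.

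**Figure D3:**
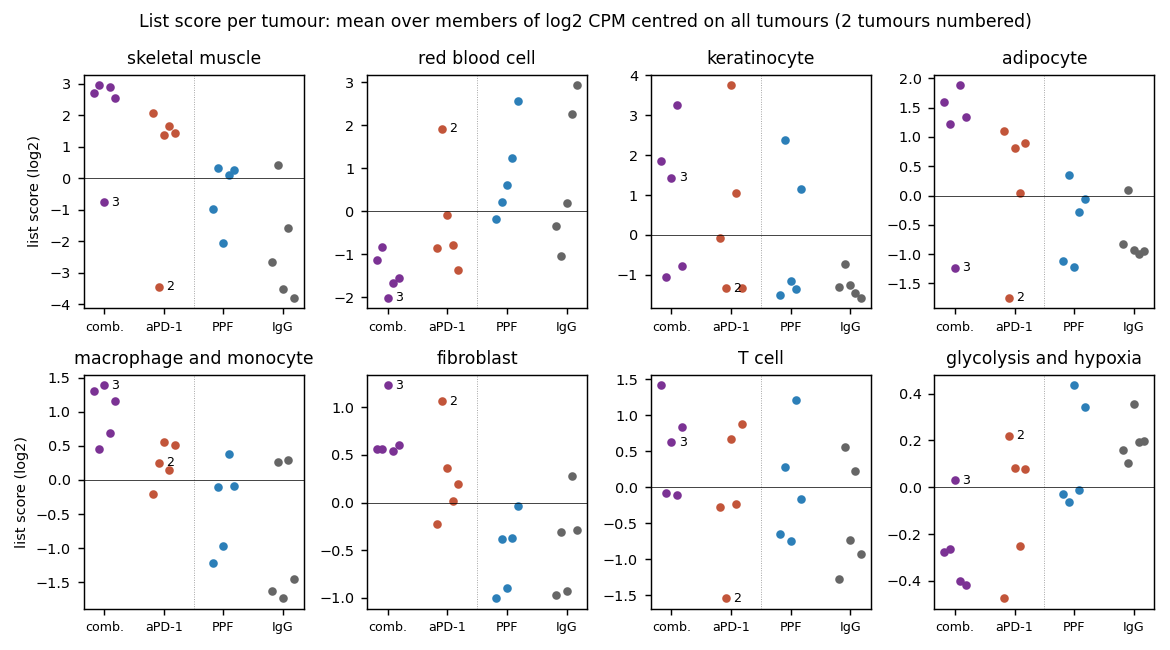
List scores per tumour (mean centred log2 CPM of the list's tested genes, y axis) by group, combination and anti-PD-1 left of propafenone and IgG, 5 tumours each. The second anti-PD-1 tumour lies at -3.435 on the muscle score, among the lowest tumours. It lies at 1.066 on the fibroblast score, above all 10 tumours without anti-PD-1. On the macrophage and monocyte score it lies at 0.251, within the range of those 10.

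Xist, the RNA that coats the inactive X chromosome in female cells, was among the 12 genes with the smallest p that rose. It ran from 3.74 through 6.06 to 12.6 CPM with anti-PD-1, and from 0.855 through 2.82 to 5.08 CPM without. The ranges overlapped between 3.74 and 5.08 CPM. The log2 change was 1.28 ± 0.204 (SE; adjusted p = 0.0028, edgeR) and was 1.42 with the muscle score as a covariate. Xist overlaps Tsix on the opposite strand, and the other 5 listed sex-linked genes, Tsix and 4 genes of the Y chromosome, did not pass the filter on low counts.

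Of the lists, glycolysis and hypoxia held the most genes that fell. Cells short of oxygen stabilise the transcription factor HIF-1, which binds the core sequence ACGTG or GCGTG and raises glucose transporters, glycolytic enzymes, lactate export and the mitophagy receptors Bnip3 and Bnip3l. Of 28 such genes tested, 26 were lower and 14 fell, against 4.22% of all genes, and none rose. The median log2 change was -0.30, against -0.0052 over all genes. Bnip3l ran from 151 through 201 to 280 CPM with anti-PD-1, and from 228 through 264 to 322 CPM without. The 2 ranges shared values between 228 and 280 CPM, and the log2 change was -0.43 ± 0.081 (SE; adjusted p = 0.0064, edgeR). Pdk1, a kinase that inhibits pyruvate dehydrogenase, averaged 174 ± 31.3 CPM with anti-PD-1 and 225 ± 28.7 CPM without (SD, n = 10 each). Larger log2 changes belonged to Vegfa, the endothelial growth factor (-0.79), and Ankrd37 (-0.77), and smaller ones to the abundant enzymes Eno1 (-0.18), Pkm (-0.19) and Ldha (-0.20). The glucose transporter Slc2a1 and the lactate exporter Slc16a3 both had log2 changes of -0.48. Without the second anti-PD-1 tumour 20 genes of the list fell, and without the third combination tumour 12. The lowest count over the fits that left out 1 library was 3, without propafenone tumour 3. With the muscle score or the red blood cell score as a covariate 1 gene of the list passed in each fit.

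Of the 14 genes that fell, 13 have a promoter in the RefSeq table for GRCm38.p6 (250 bases before to 50 after the start), and 7 of these hold ACGTG on either strand: Hk2, Aldoc, Ldha, Slc2a1, Slc16a3, Bnip3 and Ankrd37. Over the whole list the motif is in 14 of 26 promoters (53.8%), and over all 11922 promoters of tested genes in 25%. The other form of the core, GCGTG, searched on both strands, is also in 14 of the 26 promoters (53.8%), and in 48.9% of all. Promoters with the motif in the 120 bases just before the start include those of Bnip3, Slc16a3, Ldha and Hk2. That of Hk2, with 1 match, is not shown, and the others are. In the sequences shown, each match on either strand (ACGTG or its complement CACGT) is in capitals. Overlapping matches run together, and GCGTG is left in lower case in these sequences. They lie at chr7:138909507-138909626 on the minus strand (Bnip3), chr11:120948947-120949066 on the plus strand (Slc16a3) and chr7:46845684-46845803 on the plus strand (Ldha).
Bnip3: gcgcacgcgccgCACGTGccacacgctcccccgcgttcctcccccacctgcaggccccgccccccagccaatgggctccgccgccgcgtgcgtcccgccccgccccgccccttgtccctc
Slc16a3: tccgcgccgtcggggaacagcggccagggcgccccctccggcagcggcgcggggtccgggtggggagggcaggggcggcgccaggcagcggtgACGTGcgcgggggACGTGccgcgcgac
Ldha: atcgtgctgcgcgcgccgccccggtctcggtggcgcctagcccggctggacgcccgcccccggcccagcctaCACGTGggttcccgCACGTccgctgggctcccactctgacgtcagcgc
A match is a description of these letters and does not show that a factor binds there.

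The promoters of genes that rose and of genes that fell were compared as a description, with no test. The ratio of observed to expected CpG, a measure of CpG islands, had a median of 0.435 in the promoters of genes that rose, 0.772 in those of genes that fell and 0.736 over all. ACGTG was in 18.8% of promoters of genes that rose, 34.2% of those that fell and 25% of all, and GCGTG in 35.4%, 53.4% and 48.9% of the same sets. TATAAA, the TATA box, searched on both strands, was in 14.6% of promoters of genes that rose, 6.27% of those that fell and 7.76% of all. Of the 16 promoters of muscle genes that rose, 5 held this motif, namely those of Acta1, Myh1, Myh2, Myh4 and Myl1. The Myh4 promoter (chr11:67237692-67237811, plus strand, GRCm38.p6) is shown as an example of a muscle promoter with a TATA box, in capitals.
Myh4: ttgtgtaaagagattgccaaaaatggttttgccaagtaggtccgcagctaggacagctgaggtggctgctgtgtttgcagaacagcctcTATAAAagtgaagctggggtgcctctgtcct
The genes that rose are also the less abundant ones.

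Genes with the smallest p that fell lay mostly outside the hypoxia list. Dpf1, a subunit of a neuronal form of the BAF chromatin remodelling complex, ran from 4.28 through 5.45 to 7.19 CPM with anti-PD-1, and from 7.22 through 11.9 to 20.2 CPM without. The 2 sides did not overlap. The log2 change was -1.19 ± 0.169 (SE; adjusted p = 0.0014, edgeR). Me2, the mitochondrial malic enzyme, averaged 91.5 ± 7.88 CPM with anti-PD-1 and 136 ± 23.8 CPM without (SD, n = 10 each), and its cytosolic relative Me1 124 ± 12.3 and 161 ± 21.9 CPM in the same order. G6pdx, which opens the pentose phosphate pathway and with Me1 supplies NADPH, averaged 114 ± 16.2 CPM with anti-PD-1 and 170 ± 32.6 CPM without (SD, n = 10 each; adjusted p = 0.004, edgeR). It shares its locus with Ikbkg on the opposite strand. Pim2, a survival kinase, Homer1, a scaffold of synapses, and Tbl2 had log2 changes of -0.66, -0.57 and -0.63. The others with the smallest p were Dpp3, a dipeptidyl peptidase, Tut1, a terminal uridylyl transferase, Abcb6, a porphyrin transporter, and Rnf126 and Fam184b, with log2 changes of -0.27, -0.30, -0.35, -0.55 and -0.91. The largest falls among genes averaging at least 1 CPM included those of Slc4a1, Car2 and Selenbp2. Selenbp2 averaged 1.51 ± 1.2 CPM with anti-PD-1 and 4.45 ± 2.16 CPM without (SD, n = 10 each).

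Mitochondrial genes moved little and not all one way. Over all tested genes 3.88% rose and 4.22% fell, and the counts of these lists were not tested against those shares. Lonp1, the protease of the mitochondrial matrix, ran from 282 through 331 to 358 CPM with anti-PD-1, and from 360 through 386 to 418 CPM without. The sides did not overlap, although the log2 change was only -0.26 ± 0.0413 (SE; adjusted p = 0.0028, edgeR). Of 26 genes of import and quality control 2 rose (Timm10, Hspe1) and 4 fell (Lonp1, Tomm40, Afg3l2, Pmpca). Of 74 mitochondrial ribosome genes 7 fell and Mrpl24 rose, with a median log2 change of -0.079; 3 passed without propafenone tumour 3 and 16 without anti-PD-1 tumour 3. Of 37 nuclear genes of complex I 1 fell (Ndufv3), and of 38 genes of complexes II to V and 18 genes of the TCA cycle none passed. The median of complex I was -0.01, and 0.017 when libraries were scaled by their totals. The 13 genes of mitochondrial DNA were all higher, and 3 rose; mt-Nd2 averaged 1892 ± 251 CPM with anti-PD-1 and 1527 ± 280 CPM without (SD, n = 10 each), its highest value, 2502 CPM, being that of the second anti-PD-1 tumour. Without that tumour 1 of the 13 rose, and 0 to 6 passed over all fits that left out 1 library.

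Genes of ferroptosis passed at about the share of all genes: of 62 distinct genes on the lists of ferroptosis defence, ferroptosis drivers, iron and NRF2 targets 5 passed (8.06%), against 8.10% of all genes tested. Of 19 defence genes 2 rose: Hspb1, a small heat shock protein, and Slc40a1, the iron exporter ferroportin. Hspb1 ran from 3.09 through 8.63 to 16.1 CPM with anti-PD-1, and from 1.34 through 2.22 to 4.75 CPM without. The ranges overlapped below 4.75 CPM, and the log2 change was 1.91 ± 0.265 (SE; adjusted p = 0.0012, edgeR). Muscle also makes Hspb1, and its log2 change was 1.42 with the muscle score as a covariate. Of 6 small heat shock proteins Hspb7, a muscle protein, rose as well, with a log2 change of 2.06, and of -0.16 with that covariate. Gpx4, the peroxidase that removes lipid peroxides, had 235 ± 48.4 CPM with anti-PD-1 and 249 ± 28.1 CPM without (SD, n = 10 each; adjusted p = 0.5, edgeR). The cystine importer Slc7a11 had 14.8 ± 8.28 and 10.6 ± 3.44 CPM in the same order (adjusted p = 0.2, edgeR), and Hmox1, haem oxygenase, 106 ± 49.4 and 131 ± 34.1 CPM (adjusted p = 0.36, edgeR). Of 17 driver genes Ptgs2 alone rose, of 19 iron genes Slc40a1 alone rose, and of 19 NRF2 targets G6pdx and Me1 fell. In lipid synthesis 4 of 22 cholesterol genes fell (Fdft1, Sqle, Lss, Hsd17b7) and 2 of 13 fatty acid genes (Me1, Srebf1), against 4.22% of all genes. With libraries scaled by their totals no cholesterol gene passed, and none without IgG tumour 3, propafenone tumour 3 or 5, or combination tumour 4.

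The lists of p53 targets, immediate early genes, unfolded protein response, lysosome and cell cycle together held 109 distinct genes, of which 11 passed (10.1%), against 8.10% of all genes tested. Cdkn1a, the p53-induced inhibitor of the cell cycle, ran from 117 through 178 to 472 CPM with anti-PD-1, and from 173 through 368 to 940 CPM without. The ranges overlapped widely, and the log2 change was -1.15 ± 0.312 (SE; adjusted p = 0.032, edgeR). Of the other p53 targets of 15 tested, Eda2r and Sesn1 rose. With the muscle score as a covariate 0 p53 targets passed, and the log2 change of Eda2r went from 1.32 to 0.64. Sesn1 passed in 9 of the 20 fits that left out 1 library. Of 18 immediate early genes Fosl2 and Ier3 fell, with log2 changes of -0.68 and -1.04. Of 21 genes of the unfolded protein response Dnajb9 and Atf5 rose, and of 26 lysosomal genes Hexa and Psap rose. Of 31 cell cycle genes Bub1 and Ccne1 fell, by 0.23 and 0.21 on the log2 scale. With libraries scaled by their totals no cell cycle gene passed, and Ccne1 passed in 5 of the 20 fits that left out 1 library. Without anti-PD-1 tumour 3, 11 immediate early genes and 7 of the unfolded protein response passed.

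Pigment genes of the melanoma cells were somewhat higher. Of 19 tested 17 were higher and 5 rose (Trpm1, Slc24a5, Oca2, Slc45a2 and Ednrb), against 3.88% of all genes. The median log2 change was 0.25. The count ran from 2, without any of 7 libraries, to 10, without IgG tumour 4. Trpm1, a melanocyte channel under control of MITF, averaged 906 ± 153 CPM with anti-PD-1 and 548 ± 193 CPM without (SD, n = 10 each). Mitf itself had 644 ± 204 CPM with anti-PD-1 and 477 ± 133 CPM without (SD, n = 10 each; adjusted p = 0.24, edgeR), its lowest value with anti-PD-1, 164 CPM, being that of the third anti-PD-1 tumour.

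The genes nearest to the drug's target did not pass. Pdcd1 ran from 0.0479 through 0.727 to 2.51 CPM with anti-PD-1, and from 0.0737 through 0.52 to 1.19 CPM without. The log2 change was 0.71 ± 0.56 (SE; adjusted p = 0.45, edgeR), and that of Cd274 was 0.25 ± 0.226 (SE; adjusted p = 0.51, edgeR). Of 22 T cell genes 21 were higher, with a median log2 change of 0.41, and none passed. The direction of these genes turned with a covariate: with the muscle score the list's median was -0.32, Cd3e had -0.32, Cd8a -0.26 and Pdcd1 -0.09. With the red blood cell score the median was 0.15, but Cd3e had -0.41 and Cd8a -0.19, while Pdcd1 had 0.42. Cd8a averaged 0.987 ± 0.984 CPM with anti-PD-1 and 0.641 ± 0.364 CPM without (SD, n = 10 each; adjusted p = 0.64, edgeR). Cd4 had the smallest p of the T cell list, at 0.71 ± 0.383 CPM with anti-PD-1 and 0.336 ± 0.204 CPM without (SD, n = 10 each; adjusted p = 0.16, edgeR). In the T cell list Cd3e, Cd3d, Cd3g and Cd8a were all at 0 in the second anti-PD-1 tumour. These genes varied widely within each side, as their SDs show, and a p that misses the threshold does not show that the sides were alike.

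Effector and interferon genes gave the same count of 0. Of 14 cytotoxic genes none passed, with Gzmb at 1.46 ± 1.33 CPM with anti-PD-1 and 1.42 ± 1.22 CPM without (SD, n = 10 each). Of 19 interferon gamma response genes, 19 type I interferon genes and 16 MHC class I genes none passed, and the medians were 0.098, 0.27 and 0.027 on the log2 scale. The interferon gamma, MHC class I and MHC class II medians average opposite directions in the 2 backgrounds. The interferon gamma median was 0.52 between combination and propafenone tumours and -0.34 between anti-PD-1 and IgG tumours, with 2 of 19 genes in the same direction. That of MHC class I was 0.29 and -0.26 in the same order, with 2 of 16, and that of MHC class II 1.12 and -0.12, with 4 of 10. That of the cytotoxic genes was 0.81 and 0.17, with 8 of 14, and that of the type I genes 0.37 and 0.16, with 16 of 19. No gene passed for the difference between the backgrounds. B2m, the light chain of MHC class I, had 455 ± 188 CPM with anti-PD-1 and 445 ± 137 CPM without (SD, n = 10 each; adjusted p = 0.96, edgeR). Of 20 immune checkpoint genes Vsir, which encodes the myeloid checkpoint VISTA, rose (log2 change 1.04 ± 0.29, SE), and Pvr, which encodes the ligand of TIGIT made by tumour cells, fell (-0.47 ± 0.0993, SE). Of 9 B cell genes none passed. Leaving out 1 library gave 0 to 3 type I interferon genes and 0 to 1 B cell genes, both highest without IgG tumour 4. For T cell, cytotoxic, interferon gamma and MHC class I genes the count stayed at 0. Without the libraries above 1000 CPM of Hbb-bs, 1 type I interferon gene, 2 B cell genes and 1 T cell gene passed.

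Red blood cell RNA was lower with anti-PD-1 and uneven. Of 11 genes tested 10 were lower and 3 fell (Slc4a1, Car2 and Bpgm), with 1 to 9 passing when 1 library was left out. The summed level ran from 317 through 556 to 5982 CPM with anti-PD-1, and from 419 through 1212 to 11939 CPM without. Hbb-bs, a beta globin whose reads can be shared with Hbb-bt, had 57.9 to 1526 CPM (median 140) with anti-PD-1 and 85.7 to 3181 CPM (median 326) without. Its log2 change of -2.01 ± 0.714 (SE) had an adjusted p of 0.086 by edgeR. Without the second anti-PD-1 tumour 9 of the 11 fell. Without the 5 libraries above 1000 CPM of Hbb-bs, 2056 genes passed (12.7% of 16207 tested), and 1103 of them were among the 1286. With the red blood cell score as a covariate 912 genes passed (5.74%), of which 531 were among the 1286.

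**Figure D4:**
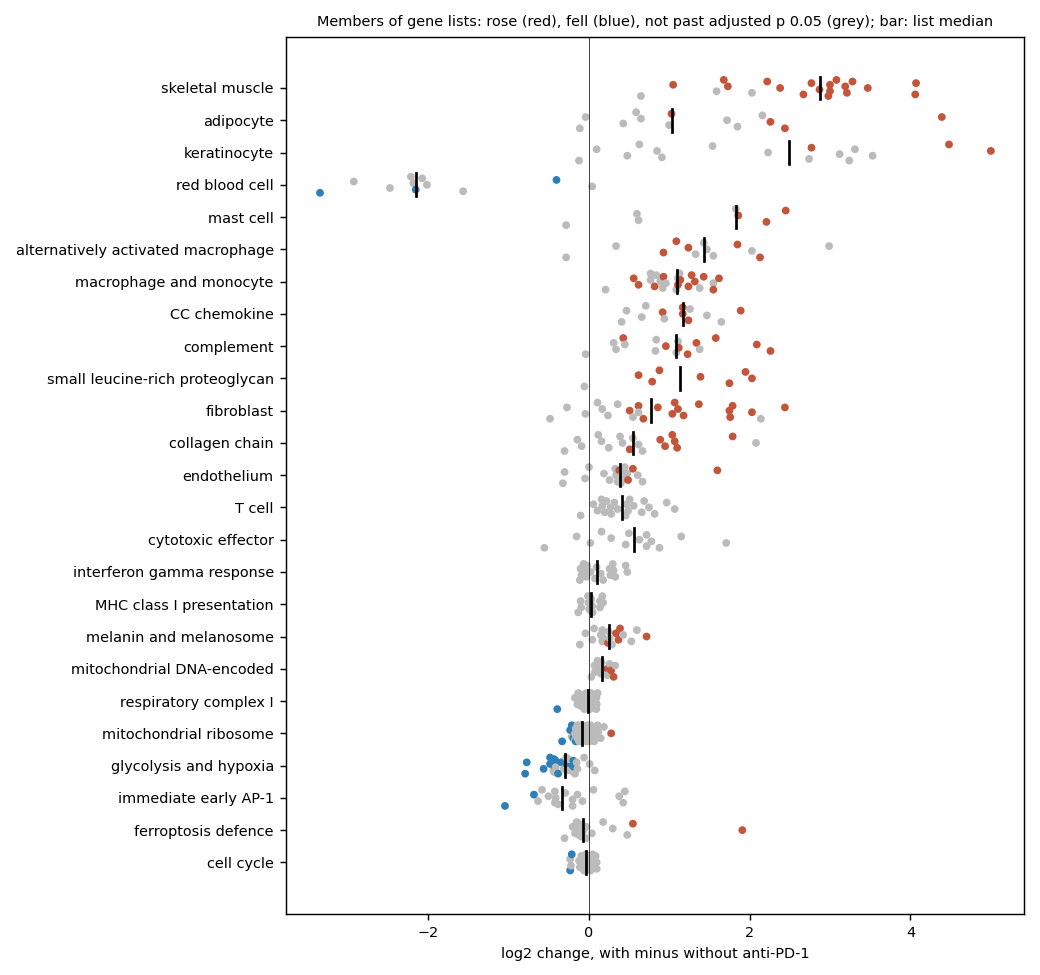
Log2 changes (with minus without anti-PD-1, x axis) of the tested members of each gene list (rows), 1 point per gene, with the list's median marked and genes that rose or fell coloured. Muscle members have a median of 2.87 and fibroblast members of 0.77, while glycolysis and hypoxia members have a median of -0.30.

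The additive comparison takes anti-PD-1 to have 1 effect in both backgrounds, and the interaction term tests the difference between them. No gene passed for the interaction by edgeR at an adjusted p of 0.05 (0%), DESeq2 and limma also gave 0, and by edgeR 482 genes had an unadjusted p under 0.05, fewer than the 794 that chance alone would give. The smallest interaction p belonged to D730045B01Rik, Ankfn1 and Ighm. Ighm, the heavy chain of IgM, had log2 changes of 2.81 between combination and propafenone tumours and -0.17 between anti-PD-1 and IgG tumours (adjusted p = 0.99 for the interaction, edgeR's quasi-likelihood test).

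The comparison was also made within each background. Combination against propafenone tumours gave 616 genes (3.88%), 265 higher and 351 lower, of which 496 were among the 1286. Anti-PD-1 against IgG tumours gave 0 genes (0%), with 1203 genes at an unadjusted p under 0.05 by edgeR. The 2 comparisons share no tumour. Over all tested genes 69.7% had the same direction in both, and the correlation across genes was 0.552, a description since genes are not independent replicates and both sets share the fit. The 1286 genes all had the same sign in both, which their choice by the average of both largely fixes. Among the genes that rose the median log2 change was 1.17 with propafenone and 0.73 without, and among those that fell -0.37 and -0.23. Postn had log2 changes of 1.42 with propafenone and 0.93 without, Lum 2.59 and 0.91, Col3a1 2.44 and 1.14, and Arl4c, a small GTPase, 1.61 and 1.26. Ltbp4 had 0.80 and 0.81, and Lonp1 -0.27 and -0.25. In levels, Postn averaged 51.1 ± 7.88 CPM in combination, 34.4 ± 5.58 in anti-PD-1, 19 ± 5.43 in propafenone and 18.1 ± 3.52 in IgG tumours (SD, n = 5 each). Igf1 averaged 3.69 ± 0.563 CPM in combination, 1.92 ± 0.273 in anti-PD-1, 0.885 ± 0.391 in propafenone and 0.719 ± 0.657 in IgG tumours (SD, n = 5 each). For both genes the combination tumours were highest, and the interaction had an adjusted p of 0.99 by edgeR. A call in one background and not in the other does not show that the effects differ, and the test of that difference called no gene.

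**Figure D5:**
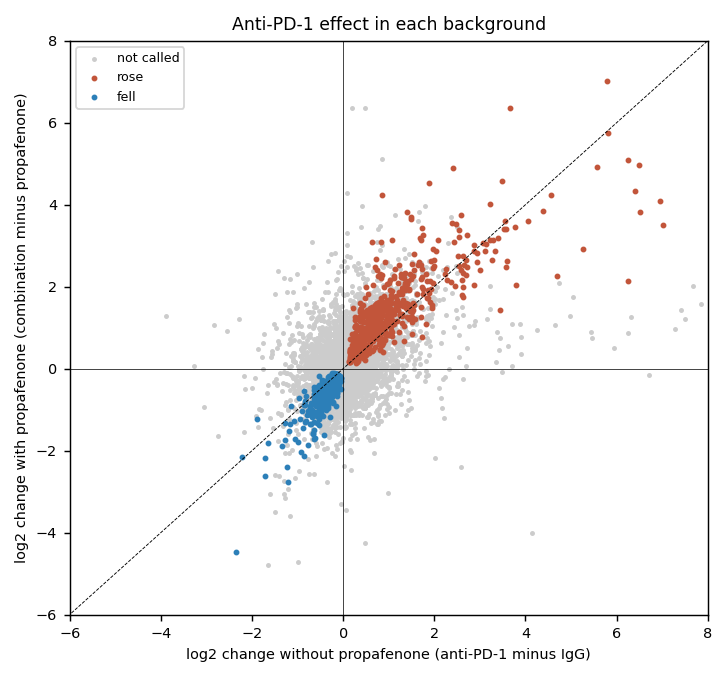
Log2 change of each tested gene between combination and propafenone tumours and between anti-PD-1 and IgG tumours, 5 tumours a group, with the genes called over both backgrounds coloured; 7 genes lie beyond the axes. The 1286 called genes were chosen by the average of the 2 axes and all have the same sign on both, with 1060 of them farther from 0 in the tumours given propafenone; the dashed line marks equal change.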

How the data were processed

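RNA of 20 whole tumours was sequenced after a SMARTER mRNA library kit, per the labels' protocols. The deposited gene table holds expected counts, whole-number estimates made by the authors and not scaled. A second deposited table holds TPM (each column sums to 1000000) and served as an alternative. Per the submitters' processing notes the tools were SAMtools 1.9, HISAT2 2.2.1 and FastQC, with mm10 and GRCm38 as builds; the counting tool, annotation and strand setting are not given in the sources used here. Low counts favour multiples of 4, so how many counts stand for 1 fragment is unknown, and dividing counts by 4 was an alternative.

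The test was edgeR 4.0.16 under R 4.3.3: a robust quasi-likelihood fit of propafenone and anti-PD-1 as additive terms over TMM-scaled counts, with 17 residual degrees of freedom, after filterByExpr by group. The filter kept 15875 of 32285 genes, with 99.98% of counts. A gene was called at a Benjamini-Hochberg adjusted p under 0.05; SE is the log2 change over the root of F. CPM use TMM-scaled totals. The interaction and the within-background comparisons came from a fit with 1 mean per group. The test was checked on simulated counts. Alternatives were limma 3.58.1, DESeq2 1.42.0, other scalings and filters, a fold minimum of 1.5, covariates of muscle or red blood cell score, and leaving out single libraries. Coordinates are from GENCODE mouse release M21 (32235 identifiers matched) and promoters from RefSeq (GRCm38.p6; 11922 of 15866 symbols matched, first listed start). No library copied another: the lowest chi-square per gene over 190 pairs was 4.21 on counts divided by 4, and within-group correlations of log2 CPM were 0.958 to 0.986.

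Named are 12 genes per direction with the smallest p (called, stable in direction without any 1 library, at least 1 CPM, ordinary symbol), the 4 largest folds per direction, a panel of 14 genes, up to 2 members per list and direction, Hbb-bs, Xist and 3 interaction genes, 116 in all; 1 gene the rule names is not reported here, and any other gene was picked with its values in view. Of the 116, 32 overlap a gene on the opposite strand. Members, lists, covariates and alternatives were chosen with earlier results of these data known.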

Additional observations from a re-analysis of the deposited data

Results flagged for a closer look

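In 10 libraries a side, the highest or lowest value of each of the 116 named genes was compared with its nearest neighbour by Dixon's ratio on log2 CPM. Of 232 such tests 23 had a value far from the others of its side; chance gives about 1 in 20. Of the 23, 12 belong to the second anti-PD-1 tumour, the one poor in muscle RNA. There Pvalb, Car3, Cd3e and Mcpt4 were at 0 CPM and Cd4 at 0.0768 CPM, low. The same tumour was high for Hbb-bs at 1526 CPM, Car2 at 3.32 CPM, Timp2 at 236 CPM, mt-Nd2 at 2502 CPM, Mrpl24 at 109 CPM, Mrpl17 at 104 CPM and Tomm40 at 232 CPM.

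The third anti-PD-1 tumour was low for Mitf at 164 CPM, Dnajb9 at 26.7 CPM and Ccne1 at 45.1 CPM, and the fifth was high for Fam184b at 17.1 CPM. Among combination tumours the third was high for Selenop at 148 CPM. Among tumours without anti-PD-1, the third propafenone tumour was low for Aspn at 1.43 CPM and for Cd4 at 0 CPM. The fourth was low for Mrpl17 at 81.7 CPM and Tomm40 at 195 CPM. The second propafenone tumour was the sole one of its side with Krt17 reads, at 0.472 CPM, and the second IgG tumour was high for Krt6b at 0.403 CPM. Of these genes Cd3e, Cd4, Hbb-bs and Mitf did not pass the test of anti-PD-1.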

How the results depend on the processing

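The count of 1286 genes stayed within 1.5 times under other scalings (1200 with DESeq2's size factors in edgeR, 1211 with library totals), filters, limma (1588 on voom values), TPM (1313) and the red blood cell covariate (912). It moved to 1963 with DESeq2, 15 with a fold minimum of 1.5, 2056 without the 5 libraries high in Hbb-bs, 838 with the muscle covariate, 616 within tumours given propafenone and 0 within those not given it, where 5 tumours a group remain. Leaving out 1 library gave 497 to 2067. Counts more than 1.5 times away came without IgG 3 (687), propafenone 3 (497) or 5 (637), anti-PD-1 3 (2067), or any of combination 1 to 5 (736, 841, 837, 688, 722); the cause was not tested. The interaction gave 0 genes under every alternative run. The labels do not state that replicate numbers pair tumours. Across groups, the 30 pairs of tumours with 1 number correlated at -0.00694 on average (-0.41 to 0.369). Of 20 libraries 7 correlated best with their own number, and these correlations do not settle whether the numbers pair tumours. With the number as a replicate block 1307 genes passed, 1107 of them among the 1286. Of named genes that changed sign, Hspb7 went to -0.16 with the muscle covariate and Hbb-bs to 0.46 with the red blood cell covariate, whose score includes it. Genes that did not pass also changed sign with the muscle covariate, namely Pdcd1, Cd274, Cd3e, Cd4, Cd8a, Gzmb, Prf1, Cxcl9, B2m, H2-Q4 and Gpx4. Among them Cd274, Cd3e, Cd8a, Gzmb, Cxcl9, B2m, H2-Q4 and Gpx4 changed sign with the red blood cell covariate too. Counts divided by 4 gave 1316 genes (805 higher, 511 lower), 1067 of them among the 1286.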

Other observations

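Other genes that changed with anti-PD-1 are on no list above, and were chosen after their values were seen. Each passed edgeR's quasi-likelihood test with Benjamini-Hochberg adjustment, and no group of such genes was counted or tested. Il1rl1, the receptor of the alarmin IL-33, ran from 0.331 through 0.775 to 1.27 CPM with anti-PD-1, and from 0 through 0.152 to 0.29 CPM without (adjusted p = 0.004), with no overlap. Il4ra, the shared receptor chain of IL-4 and IL-13, averaged 15.4 ± 5.78 CPM with anti-PD-1 and 7.15 ± 2.33 CPM without (adjusted p = 0.0084), while Stat6, which signals below it, averaged 118 ± 11.5 and 146 ± 13.3 CPM in the same order and fell (adjusted p = 0.0077). Tlr2 had a log2 change of 1.03, Notch1 of 0.76, Aplnr, the apelin receptor of vessels, of 1.70, and Egfr of 1.40. The acute phase proteins Hp (haptoglobin) and Ptx3 (pentraxin 3) had log2 changes of 1.76 and 2.95. Tnc, tenascin C of injured matrix, averaged 44 ± 16.2 CPM with anti-PD-1 and 15.7 ± 8.6 CPM without (adjusted p = 0.0085). Values after ± are SD over 10 tumours.

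The genes that follow fell and were not on the hypoxia list; they too were chosen after their values were seen, and some are known to rise in low oxygen. Ero1l, the oxidase of the endoplasmic reticulum, averaged 771 ± 255 CPM with anti-PD-1 and 1394 ± 426 CPM without (adjusted p = 0.014). Gys1, glycogen synthase, averaged 225 ± 59.7 and 326 ± 51.3 CPM in the same order (adjusted p = 0.012). Pgf, placental growth factor, averaged 33.3 ± 20.6 and 72.3 ± 35 CPM (adjusted p = 0.04). Atp7b, a copper transporter, and Tet1, an enzyme that oxidises methylated cytosine, had log2 changes of -1.26 and -0.68. Transcripts of the major urinary proteins, which liver makes, were also higher: Mup22 ran from 0 through 2.51 to 5 CPM with anti-PD-1 and from 0 through 0.12 to 0.488 CPM without (adjusted p = 0.014). These genes are near-identical copies, so which of them gave the reads is uncertain. All adjusted p-values here are from edgeR.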
